A study of Mus musculus with 24 samples.

Results

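The collecting duct is the last segment of the kidney tubule, where the final amounts of water, sodium and acid in the urine are set. Of the 50765 genes in each deposited table, 10 marker genes of this segment were chosen by name for their known roles, and every table held a row for each. They fall into a water group (Avpr2, Aqp2, Aqp3, Aqp4), a sodium group (Scnn1a, Scnn1b, Scnn1g) and a group of intercalated cells, the acid and base secreting cells of the duct (Slc4a1, Slc26a4, Atp6v1b1). Nudt12-/- mice lack NUDT12, a nudix hydrolase that removes NAD caps from RNA, and were compared with Nudt12+/+ wild-type mice. The line carries a 58 bp deletion in exon 6, made with Cas9 and 2 guides in B6D2F1/J hybrid embryos, and its founder was crossed to C57BL/6J, so that all knockouts share 1 allele. Kidney gave 2 wild-type and 3 knockout libraries and liver 3 and 3, all at 3 to 4 months of age and with no time of day given. A time course held 6 wild-type and 6 knockout liver libraries from mice of 4 to 6 months, kept for 10 days in 12 h of light and 12 h of dark. Each genotype has a single library at ZT0, ZT4, ZT8, ZT12, ZT16 and ZT20, where ZT counts the hours since the light came on.

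In principal cells vasopressin binds the receptor encoded by Avpr2 on the blood side and raises cyclic AMP. Aquaporin 2, stored in vesicles, then moves to the urine side and lets water in, and water leaves the cell through aquaporins 3 and 4 on the blood side. Aldosterone acts in the same cells on the epithelial sodium channel, which is built from alpha, beta and gamma subunits (Scnn1a, Scnn1b, Scnn1g). Type A intercalated cells secrete acid with a proton pump that contains the B1 subunit (Atp6v1b1) and return bicarbonate to blood through the exchanger AE1 (Slc4a1). Type B intercalated cells secrete bicarbonate through pendrin (Slc26a4). Slc4a1 is also the band 3 gene of red blood cells.

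The libraries held about 12.5 to 28.57 M reads assigned to genes (M, 1e6), estimated as a library's sum divided by its commonest low value. Nudt12 stood at 1548 ± 49.7 in wild-type and 307 ± 43.9 in knockout kidneys (normalized counts, mean ± SD, n = 2 and 3). Values below are normalized counts as the authors deposited them, which are comparable within a table only. Wild-type kidney 1 stood apart in its share of mitochondrially encoded RNA, 16.06% against 7.4 to 9.54% in the other 4 kidney libraries. Whether the libraries came from separate animals is not stated beyond the sample labels, and p-values measure the spread between these samples. Whole kidney also holds all other tubule segments, so that fewer cells of a type and less RNA per cell cannot be told apart.

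Each of the 10 genes was detected in each kidney library, between the 60.6th and the 91.2nd percentile of the genes above 0 in that library. Compared per kilobase of exon (union of exons, GENCODE vM21), Aqp2 and Aqp3 were the most abundant, at 1026 ± 201 and 984 ± 95.6 normalized counts per kb over the 5 kidney libraries. Slc26a4 followed at 546 ± 52.0 per kb, Scnn1b at 342 ± 89.3, Scnn1g at 282 ± 14.4 and Atp6v1b1 at 270 ± 18.5. The lowest levels per kb were those of Aqp4 at 225 ± 61.5, Scnn1a at 157 ± 38.2, Slc4a1 at 123 ± 26.8 and Avpr2 at 121 ± 22.7. Of the 9 steps between neighbours in this order, only that from Aqp3 to Slc26a4 separated ranges that did not overlap between libraries. With the longest coding transcript as the length, Atp6v1b1 moved from rank 6 to rank 3. The alpha subunit of the sodium channel was less abundant per kb than the beta subunit in each kidney library, at 0.292 to 0.674 of it.

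Aqp2 (ENSMUSG00000023013.5) lies on chromosome 15 from 99579055 to 99584547 on the plus strand of GRCm38 and has 4 exons. Aqp2 alone of the 10 members had kidney groups that did not overlap, where 20.5% of all genes did not overlap. Its difference did not pass the threshold (limma, adjusted p = 0.878). Its promoter is shown because of that separation, and because vasopressin acts on this gene through cyclic AMP and the factor CREB. The 300 bases at chr15:99578806-99579105 on the plus strand (RefSeq, GRCm38.p6) run from 250 bases before to 50 after its start. Capitals mark 2 matches, the short CREB site TGACG read as CGTCA on this strand, 211 bases before the start, and the E-box CACGTG, the site that the clock factors BMAL1 and CLOCK bind, 58 bases before it.
Aqp2: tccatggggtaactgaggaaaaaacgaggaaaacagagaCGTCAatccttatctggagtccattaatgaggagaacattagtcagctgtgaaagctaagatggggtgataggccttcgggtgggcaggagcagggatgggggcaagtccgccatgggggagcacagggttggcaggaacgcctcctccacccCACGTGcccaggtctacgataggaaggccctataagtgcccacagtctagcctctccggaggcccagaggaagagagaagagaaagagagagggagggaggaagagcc
Searched on both strands, CACGTG occurs in 7.15% and TGACG in 20.8% of 32851 such windows, and the motifs do not overlap each other here. Among the 7 members with a window in the table (Avpr2, Aqp2, Aqp3, Scnn1b, Scnn1g, Slc26a4, Atp6v1b1), Aqp2 alone held either motif. These are matches of letters only.

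In kidney the knockout question was whether loss of Nudt12 goes with other levels of these genes. None of the 10 passed the threshold (limma, adjusted p below 0.05, where 0.0045% of 22224 genes passed). At an unadjusted p below 0.05 there was 1 member, Aqp2, against 5.4% of all genes. Of the 10, 5 were higher and 5 lower. Their median log2 difference was -0.01, beside a median of 0.0017 over all genes tested. The authors' deposited kidney table lists 0 of the 10 below an adjusted p of 0.05, where it lists 88 genes in all.

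Of the water group, Aqp2 stood at 1752 and 1681 in the wild types and at 1148, 1163 and 1533 in the knockouts. All 3 knockouts were below both wild types, and Aqp2 was the only 1 of the 10 members whose groups did not overlap, where 20.5% of all genes did not overlap and 10.6% had all knockouts below. The log2 fold change was -0.43 (SE 0.15, 95% interval -0.80 to -0.07, unadjusted p = 0.0261, adjusted p = 0.878 with limma). The authors' deposited table gives Aqp2 a log fold change of -0.0151 and an adjusted p of 0.607. In that table the log fold changes of most genes are close to 0, with a median size of 0.00179 over kidney genes with an adjusted p.

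Aqp3, the exit channel of the blood side, stood at 1894 and 1528 in the wild types and 1911, 1719 and 1944 in the knockouts. The groups overlapped, and the log2 fold change was 0.13 (SE 0.13, 95% interval -0.19 to 0.44). The summed level of the 4 water genes was 5099.9 and 5682 in the wild types and 4535 to 5063 in the knockouts.

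Aqp4 stood at 1112 in wild type 1 and 2075 in wild type 2, and at 1271, 1231 and 1333 in the knockouts. The wild types lay on either side of the knockouts, and the log2 fold change of -0.25 (SE 0.24, 95% interval -0.83 to 0.33) became 0.20 without wild type 2 and -0.70 without wild type 1. Avpr2, the receptor gene, stood at 343 and 398 in the wild types and 333, 422 and 253 in the knockouts. Its groups overlapped, at a log2 fold change of -0.17 (SE 0.23, 95% interval -0.72 to 0.39).

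**Figure D1:**
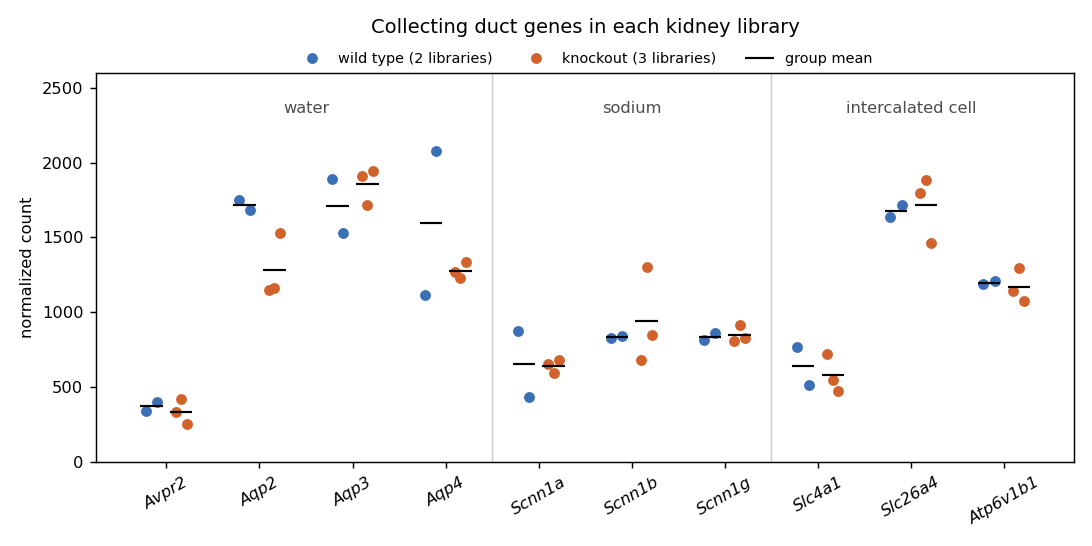
Normalized counts (y axis) of the 10 collecting duct genes (x axis) in each kidney library, with points for libraries and bars for group means. Aqp2 is the gene whose 3 knockout points, 1148 to 1533, all lie below both wild-type points, 1681 and 1752, as held for 10.6% of all genes.

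Of the sodium channel subunits, Scnn1a stood at 873 and 435 in the wild types and 651, 597 and 680 in the knockouts. As for Aqp4, the wild types enclosed the knockouts, in the opposite order. The log2 fold change was 0.06 (SE 0.28, 95% interval -0.60 to 0.72), and it became -0.44 without wild type 2 and 0.56 without wild type 1. Scnn1b stood at 826 and 840 in the wild types and 682, 1302 and 847 in the knockouts, which enclosed the wild types (0.13, SE 0.26, 95% interval -0.48 to 0.74). Scnn1g was the steadiest of the 10 genes, at 813 and 862 in the wild types and 809, 912 and 825 in the knockouts. Its interval was among the narrowest, -0.27 to 0.31 around a log2 fold change of 0.02 (SE 0.12).

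The spread between libraries differed among the 3 subunits. Scnn1b and Scnn1g are neighbours on chromosome 7 of GRCm38, at 121865038 to 121918514 and 121734479 to 121768475. The SD of log2(value + 1) over the 5 kidney libraries was 0.07 for Scnn1g, 0.34 for Scnn1b and 0.36 for Scnn1a. Over the 6615 genes with a mean of 300 to 2000 the median SD was 0.17, and the upper quartile was 0.25. Above that quartile lay 6 members, namely Scnn1a, Aqp4, Scnn1b, Slc4a1, Aqp2 and Avpr2. Below the lower quartile of 0.11 lay Scnn1g and Atp6v1b1.

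**Figure D2:**
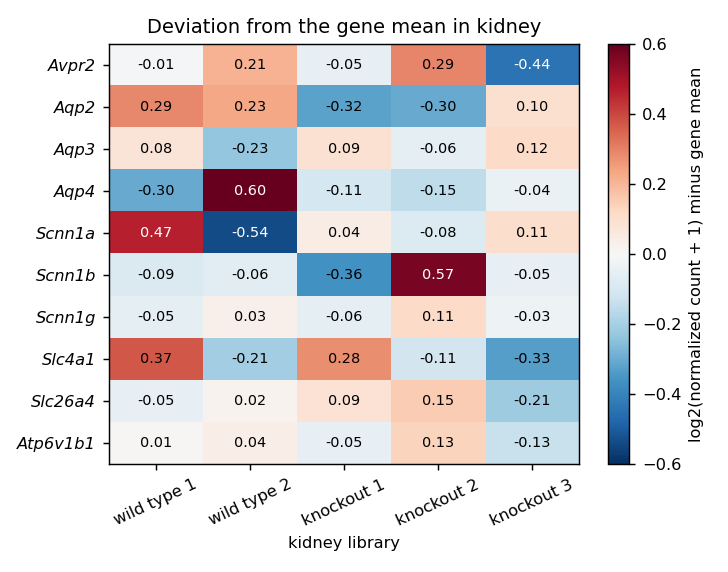
Deviation of log2(normalized count + 1) from the gene's mean over the 5 kidney libraries (colour and printed value) for each member (rows) and library (columns). The 2 wild types differ most in Aqp4 (-0.30 and 0.60) and Scnn1a (0.47 and -0.54), while Scnn1g stays within 0.11 of its mean.

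Of the genes of intercalated cells, Slc26a4 stood at 1637 and 1716 in the wild types and 1798, 1883 and 1460 in the knockouts. The groups overlapped, at a log2 fold change of 0.02 (SE 0.14, 95% interval -0.30 to 0.35). Atp6v1b1 stood at 1186 and 1210.5 in the wild types and 1140.0, 1295 and 1077 in the knockouts, at -0.04 (SE 0.12, 95% interval -0.33 to 0.25). Both intervals were narrow and held 0.

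Slc4a1 stood at 766 and 512 in the wild types and 718, 548 and 471 in the knockouts, with overlapping groups (-0.14, SE 0.24, 95% interval -0.71 to 0.43). Because red cell precursors also carry this transcript, a list of 12 erythroid genes was set beside it. Their summed level was 57480 and 23213 in the wild types and 36304, 26089 and 47173 in the knockouts, with up to 2 of the 12 listed at 0 in a library. Hbb-bs, a beta globin gene that makes up most of that sum, stood at 30726 and 11758 in the wild types and 21379, 14065 and 25418 in the knockouts. The genes of the list did not share an order over the libraries. Epb42 was lowest in wild type 1 (16.5, against 24.3 to 45.5), Hba-a1 (9951) and Hbb-bt (2348) were highest in knockout 3, and Klf1 (26.7) was highest in knockout 1. The globin genes have near-identical copies that can share reads, so their single values are uncertain. Their part in the Slc4a1 level was not tested.

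**Figure D3:**
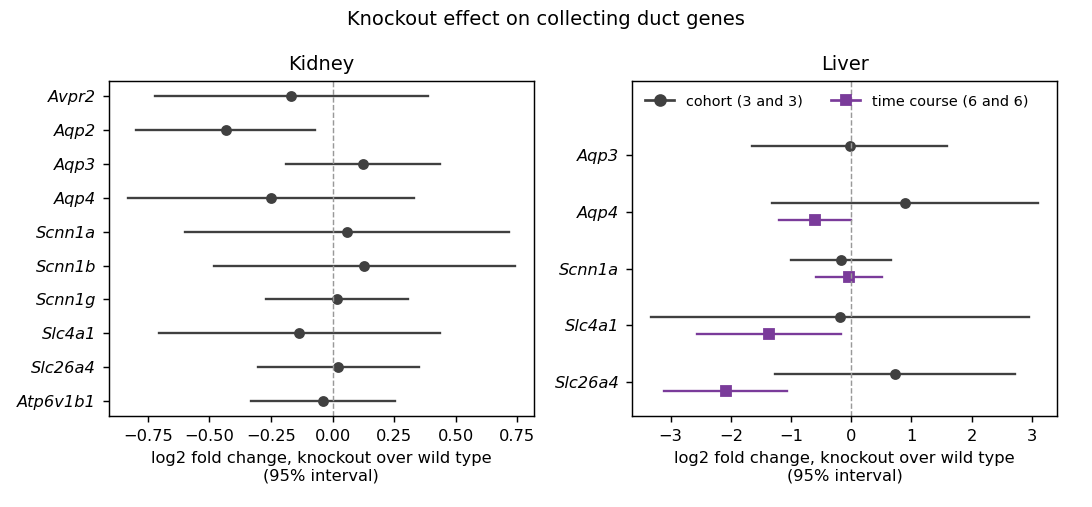
Log2 fold change of knockout over wild type on the log2(value + 1) scale (x axis) with its 95% interval from limma, for the members in kidney (left, 2 and 3 libraries) and for those tested in liver (right, cohort as circles, time course as squares). In kidney the Aqp2 interval, -0.80 to -0.07, is the only 1 that lies to one side of 0, and its adjusted p was 0.878.

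Other genes of the same pathways were counted from lists, with 0 past the threshold in each kidney list. The genes named from a list are those with its lowest kidney p, so that groups lying apart follow from how they were chosen. Over all genes 20.5% had groups that did not overlap, and 5.4% had an unadjusted p below 0.05. No such share was taken for summed levels of lists, so sums that lie apart are a description only. Among 20 genes of vasopressin signalling and principal cell identity, 8 were higher and 12 were lower (median -0.04). Adcy3, an adenylyl cyclase, stood at 194 and 219.6 in the wild types and 115, 125 and 99.6 in the knockouts (-0.87, SE 0.20, adjusted p = 0.708). Creb1, the gene of the cyclic AMP responsive factor CREB, stood at 1293 and 1555 in the wild types and 1152, 1127 and 1356 in the knockouts (-0.23, adjusted p = 0.930). Gata3, a transcription factor of principal cells, stood at 290 and 88.1 in the wild types and 35.7, 85.3 and 141 in the knockouts, a wide spread within both groups.

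Among 18 genes that control the sodium channel or drive sodium transport, 13 were higher and 5 lower (median 0.12), and the summed level was 178427 to 186174 in the wild types and 191694 to 199201 in the knockouts. Nr3c2, the mineralocorticoid receptor to which aldosterone binds, stood at 617 and 489 in the wild types and 816, 818 and 767 in the knockouts. The log2 fold change was 0.54 (SE 0.14, unadjusted p = 0.0073, adjusted p = 0.841). Nedd4l, the ubiquitin ligase that removes the channel from the membrane, stood at 1865 and 1794 in the wild types and 1422, 1642 and 1661 in the knockouts (-0.22, SE 0.12, adjusted p = 0.909). Prss8, a protease that activates the channel, overlapped between groups (0.24, SE 0.12, adjusted p = 0.909).

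Among 18 further genes of intercalated cells, 6 were higher and 12 lower (median -0.08). Jag1, a Notch ligand, stood at 853 and 795 in the wild types and 627, 725 and 649 in the knockouts (-0.31, SE 0.13, unadjusted p = 0.0489, adjusted p = 0.899). Atp6v0a4, a membrane subunit of the same proton pump, stood at 5498 and 6762 in the wild types and 5415, 5068 and 4232 in the knockouts (-0.32, SE 0.14, adjusted p = 0.899). Car2, carbonic anhydrase 2, overlapped between groups (0.21, adjusted p = 0.911). Of the 9 other aquaporin genes 7 were tested, 3 higher and 4 lower, with Aqp1, the channel of the proximal tubule and thin descending limb, at 18157 and 21581 in the wild types and 19197, 17264 and 17614 in the knockouts.

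Markers of other segments and cell types were set beside these values. The summed level of 11 genes of the inner medulla and osmolyte handling was 23617 to 25409 in the wild types and 23035 to 23436 in the knockouts. None of the 11 passed, with 4 higher and 7 lower (median -0.09). Slc14a2, the urea transporter of the inner medullary duct, stood at 603 and 548 in the wild types and 388, 507 and 630 in the knockouts. Of 8 distal and connecting tubule genes, 8 had a log2 fold change above 0 (median 0.22, beside 0.0017 over all genes, none past the threshold), with a summed level of 68137 to 68442 in the wild types and 71386 to 79254 in the knockouts. Of these, 3 had an unadjusted p below 0.05 with limma, where 5.4% of all genes did. They were Pvalb (0.70, unadjusted p = 0.0034, adjusted p = 0.708), Trpm6 (0.41) and Slc8a1 (0.34). Proximal tubule markers (5 of 10 higher, median 0.01, sums 475331 to 507237 and 485679 to 505142) and thick ascending limb markers (6 of 8 higher, median 0.09, sums 136996 to 176589 and 146137 to 176636) overlapped. So did 7 urothelial markers (2 higher, 5 lower, sums 422 to 439 and 409 to 479) and 8 of podocytes and endothelium (3 higher, 5 lower, sums 11496 to 12468 and 11932 to 12289). The part of these segments in the level of Aqp2 was not tested.

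The genes whose pattern over the 5 kidney libraries was nearest to that of Aqp2 were Atp6v0a2, Loxl1, P3h3, Fbrs and Taok3. Their root mean square difference from Aqp2 in centred log2(value + 1) was 0.03 to 0.06, against a median of 0.30 over the 11600 genes compared. Atp6v0a2, a subunit of the proton pump of intracellular membranes, stood at 2589 and 2386 in the wild types and 1586, 1699 and 2179 in the knockouts. With 5 libraries such nearness is a description only.

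Liver gave the contrast to kidney. Aqp2 and Avpr2 were listed at 0 in all 18 liver libraries, Atp6v1b1 in 17 and Scnn1g in 16. Scnn1b was above 0 in 6 liver libraries and Aqp3 in 7, at no more than 8.11 and 3.07 normalized counts. The commonest low value of a library, an estimate of what 1 read is worth, was 0.754 to 1.488 in liver. Values of a few normalized counts are therefore a few reads. Aqp4 and Scnn1a were listed above 0 in each liver library, at medians of the 57.5th and 51.8th percentile of genes above 0 in the cohort, and the 59.2nd and 49.7th in the time course. In kidney their medians were the 85.5th and 75.5th.

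**Figure D4:**
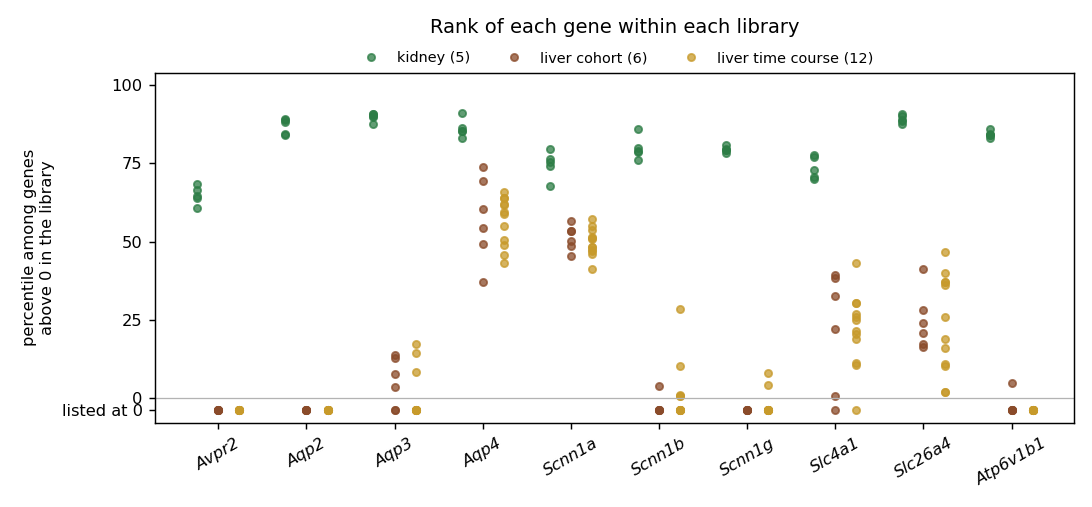
Percentile of each member among the genes above 0 in the same library (y axis), with 1 point per library, for 5 kidney, 6 cohort liver and 12 time course liver libraries; points at the bottom are listed at 0. All kidney points lie above the 60th percentile, and Aqp2 and Avpr2 are at 0 in each liver library.

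In the liver cohort 5 members had a mean of at least 1 and were tested, and none passed (limma, where 0.0157% of 19088 genes passed). At an unadjusted p below 0.05 there were 0 of 5, where 7.99% of all genes were. The groups of none of the 5 lay apart, where 13.9% of all genes did and 6.86% had all knockouts below. Aqp4 varied widely between livers, with 307, 19.2 and 113 in the wild types and 70.2, 164 and 386 in the knockouts. The groups overlapped widely (0.89, SE 0.96, 95% interval -1.32 to 3.10). Scnn1a stood at 133, 98.3 and 54.9 in the wild types and 65.7, 76.8 and 101 in the knockouts (-0.16, SE 0.36, 95% interval -0.998 to 0.668). Slc26a4 stood at 4.03, 2.17 and 9.79 in the wild types and 32.5, 2.90 and 4.99 in the knockouts (0.73, SE 0.87), a sign set by knockout 1, since the value was -0.20 without it. Slc4a1 stood at 27.1, 11.7 and 0 in the wild types and 26.4, 0.730 and 4.18 in the knockouts (-0.18, SE 1.37).

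In the time course 4 members were tested (Aqp4, Scnn1a, Slc4a1, Slc26a4), and none passed (limma, where 0.00535% of 18702 genes passed). All 4 had a log2 fold change below 0, with 3 of them at an unadjusted p below 0.05, where 5.99% of all genes were. The genotypes overlapped for all 4, where 0.198% of all genes did not overlap and 0.112% had all knockouts below. Slc26a4 was lower in the knockout at 6 of 6 times, and no share over all genes was taken for such counts of times. From ZT0 to ZT20 Slc26a4 stood at 5.75, 47.5, 27.0, 2.58, 24.1 and 16.02 in the wild types and at 1.96, 19.3, 2.29, 1.10, 1.22 and 1.60 in the knockouts. All knockout values but that of ZT4 are a few reads each. The genotypes overlapped through the knockout of ZT4 and the wild types of ZT0, ZT12 and ZT20. The log2 fold change was -2.09 (SE 0.45, 95% interval -3.10 to -1.07, unadjusted p = 0.00125, adjusted p = 0.738).

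Aqp4 was lower in the knockout at 5 of 6 times, at 133, 164, 141, 50.8, 183 and 114 in the wild types and 38.9, 87.2, 75.8, 37.3, 160.3 and 165 in the knockouts (-0.61, SE 0.26, adjusted p = 0.831). Scnn1a was lower at 3 of 6 times, at 41.6, 54.0, 82.2, 59.8, 66.8 and 79.5 in the wild types and 49.5, 103, 57.5, 31.5, 60.0 and 91.8 in the knockouts (-0.03, SE 0.24, 95% interval -0.58 to 0.52). Slc4a1 stood at 5.99, 5.77, 45.5, 5.65, 3.47 and 9.002 in the wild types and 8.14, 0, 4.86, 1.86, 4.14 and 1.81 in the knockouts (-1.37, SE 0.53, adjusted p = 0.828). The wild-type library of ZT8 was also the highest of the 12 in the red cell membrane gene Epb42 (11.2), and it was the shallowest, at about 12.5 M reads. Its summed level of the 12 erythroid genes, 7724, lay within the range of the other libraries, 4075 to 8533, and Gata1 was listed at 0 in all 12.

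**Figure D5:**
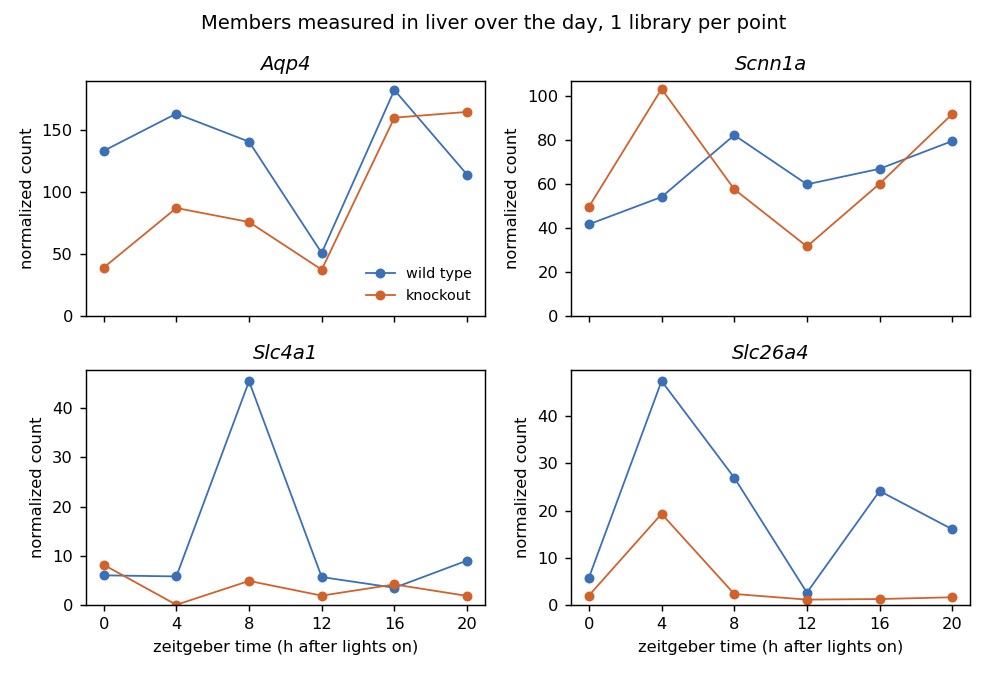
Normalized counts (y axis) of the 4 members tested in the time course livers against zeitgeber time (x axis, hours), with 1 library per genotype and time and lines joining libraries of a genotype. Knockout Slc26a4 lies below the wild type at each of the 6 times, and the Slc4a1 value of 45.5 at ZT8 stands apart. No share over all genes was taken for such a count of times.

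No member varied over the day past the threshold in liver (F test of a 24 h cosine and sine with limma, 0 of 4, where 5.8% of genes passed, and 0 of 4 at an unadjusted p below 0.05, where 21% were). The adjusted p ran from 0.453 for Slc26a4 to 0.932 for Slc4a1. The knockout effects in kidney and liver did not differ past the threshold for any of the 5 members tested in both (interaction with limma, adjusted p = 0.9997 for each, where 0.00545% of 18354 genes passed, and 0 of 5 at an unadjusted p below 0.05, where 4.41% were). The effects on Slc26a4 in the liver cohort and the time course, 0.73 and -2.09, differed by 2.81 (SE 0.98, 95% interval 0.71 to 4.92), with an unadjusted p = 0.0127 and an adjusted p = 0.326. None of the 4 members in that comparison passed, where 0.0388% of 18029 genes passed, and Slc26a4 was the 1 member at an unadjusted p below 0.05, where 10.4% were. The authors' deposited tables list 0 members below an adjusted p of 0.05 in the liver cohort, where they list 211 genes in all. In the time course they list 0 members and 6 genes in all.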

How the data were processed

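Total RNA was depleted of ribosomal RNA and sequenced as stranded single reads of 100 bases, per the labels' protocols. The authors deposited 3 tables of normalized counts per gene (a normalized signal), with an adjusted p-value and a log fold change, per the file headers. The headers give no base for the deposited fold, which was taken as log2. The submitters' processing notes name GRCm38, DESeq2 1.24.0, DESeq, Salmon 0.12.0 and R 3.6.0 without saying what each did. Values under 50 were whole multiples of a library's commonest low value (to within 0.1%) for 13.74 to 33.66% only. Counts were therefore not recovered, and limma replaced the planned count test. Each table was normalized separately. Of 24 samples 23 were analysed; wild-type kidney replicate 3 is not analysed here.

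The values plus a pseudocount of 1 were taken to log2, a scale that understates changes of low genes, and fitted with limma 3.58.1 (R 4.3.3, trended variance) where the table's mean reached 1. P-values are 2-sided and were adjusted after Benjamini and Hochberg across the whole table, with 0.05 as threshold. The time course fit had time as a factor, because the labels give both genotypes the same times; same-numbered libraries there deviated together with correlations of 0.0158 to 0.243. Members and lists were chosen with earlier results of these data known. The comparison of the liver cohort with the time course was added after seeing the data. Named genes are the members, some or all of the 4 genes per list with the lowest kidney p, and the 5 genes nearest to Aqp2. Hbb-bs, Hbb-bt, Hba-a1, Klf1, Epb42 and Gata1 were named after their values were seen. Scripts were tested on simulated data.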

Additional observations from a re-analysis of the deposited data

Results flagged for a closer look

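In the time course, 3 of the 9 groups of 6 libraries examined held a library far from the others of its genotype, a flag that chance gives to about 1 in 20 groups. Slc4a1 stood at 45.5 in the wild-type library of ZT8. Slc26a4 stood at 19.3 in the knockout library of ZT4, the time at which the wild type was highest too, at 47.5. Scnn1b stood at 8.11 in the wild-type library of ZT4 and at no more than 1.54 in the other 11. Groups were examined only at a mean of at least 1. The wild-type Scnn1b group, with a mean of 1.45, reached that only through this library, so its flag followed from the filter.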

How the results depend on the processing

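No member passed the threshold under any alternative run (0 in each comparison), and the Aqp2 fold change in kidney stayed below 0, at -0.57 to -0.36 when leaving out each library in turn. Leaving out single libraries gave kidney log2 fold changes of -0.35 to 0.0214 for Avpr2, -0.0294 to 0.28 for Aqp3, -0.70 to 0.20 for Aqp4, -0.44 to 0.56 for Scnn1a, -0.13 to 0.33 for Scnn1b, -0.0354 to 0.0595 for Scnn1g, -0.43 to 0.16 for Slc4a1, -0.0486 to 0.13 for Slc26a4 and -0.11 to 0.0196 for Atp6v1b1. The liver cohort gave -0.47 to 0.40 for Aqp3, -0.18 to 1.79 for Aqp4, -0.51 to 0.12 for Scnn1a, -1.59 to 0.81 for Slc4a1 and -0.20 to 1.35 for Slc26a4. The time course gave -0.22 to 0.14 for Scnn1a and -0.83 to -0.38 for Aqp4. Kidney minus liver gave -0.27 to 0.59 for Aqp3, -0.28 to 0.73 for Scnn1a, -0.95 to 1.46 for Slc4a1 and -1.33 to 0.23 for Slc26a4, and cohort minus time course gave -0.48 to 0.15 for Scnn1a and -0.23 to 2.18 for Slc4a1. With a pseudocount of 0.1 Slc4a1 became 0.52 in the cohort and -0.65 in kidney minus liver. Time course values with pseudocounts of 0.1 and 5 were -2.03 and -0.80 for Slc4a1 and -2.48 and -1.35 for Slc26a4. The kidney fit with a replicate block gave Avpr2 0.0214, Slc4a1 0.0024 and Atp6v1b1 0.0196, the same as leaving out knockout 3, which has no partner in the block. Kidney numbers follow accession order and pair nothing; with or without the block, no member was called. Over all genes, 1 passed in kidney, and 2 with a pseudocount of 0.1, 0 without a filter, 0 with a mean of at least 10, 0 with the replicate block and 5 with both tissues in 1 fit. In the cohort 3 passed, and 1 with a pseudocount of 0.1, 8 without a filter, 1 with a mean of at least 10, 1 after rescaling by the median ratio, 6 with the replicate block and 66 with both tissues in 1 fit. Kidney minus liver fell from 1 to 0 with a pseudocount of 0.1. Without single knockout libraries the kidney count was 0 to 1. Without single libraries the counts were 0 to 15 in the cohort, 0 to 1 in the time course and 0 to 130 for cohort minus time course (7 as reported). For the rhythm, each run left out the libraries of both genotypes at 1 time, and the count was 464 to 605 (1085 as reported). The cause of these moves was not tested.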
